A study of Mus musculus with 6 samples.

Results

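Amino acid transporter genes of the solute carrier families SLC1, SLC3, SLC6, SLC7, SLC36, SLC38 and SLC43 were examined in 4T1 cells with and without an shRNA against NFAT1. 4T1 is a mouse mammary carcinoma line that is highly tumorigenic and metastatic, and NFAT1, whose gene is Nfatc2, is a transcription factor activated by calcium through the phosphatase calcineurin. Members were taken by gene symbol, without Slc6a6 and Slc38a2, as 1 probe set per gene, the one with the highest mean over the 6 arrays. This gave 61 of 18193 genes with a single symbol on the array, namely 58 transporter genes and 3 genes on the opposite strand next to one, Slc7a6os, Slc36a1os and Slc6a19os, which carry the same symbol stem but are not transporters.

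All cells were 4T1 cells in adherent culture, a single line, transduced with a vector and kept under selection for 10 days. The control group received a control shRNA and the other group an shRNA against NFAT1, with 3 Affymetrix arrays in each, made from 200 ng of total RNA per sample. Whether the samples within a group were separate cultures is not stated in the labels, and p-values therefore cover only the variation among these samples, part of which may be technical. The labels name 1 NFAT1 shRNA vector, so effects of that shRNA and of a loss of NFAT1 cannot be told apart. Values are log2 signals after RMA, a method that subtracts background, equalises the arrays and combines the probes of each probe set. Differences are NFAT1 shRNA minus control, and a difference of 1 is a doubling or halving of the signal. A gene was called changed at an adjusted p under 0.05, from limma fitted over all genes with Benjamini-Hochberg adjustment.

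Array medians ran from 5.42 to 5.48, and with few arrays their number limits the precision. Epithelial markers of mammary cells were present, with signals of 9.29 to 13.23 over 9 genes, while the general leukocyte marker Ptprc read from 2.85 to 3.06. The macrophage genes Csf1r and Cd68 of the same leukocyte list were not dim. Csf1r read 8.08, 8.49 and 8.23 on control and 6.99, 9.01 and 8.26 on NFAT1 shRNA arrays, and Cd68 read 6.22, 6.85 and 6.55 on control and 6.23, 7.75 and 7.92 on NFAT1 shRNA arrays. The leukocyte list as a whole had summed linear signals of 457 to 586 on control arrays and 321 to 856 on NFAT1 shRNA arrays, which overlap. Of its 8 genes, 0 had an unadjusted p under 0.05. The fibroblast list gave 222 to 380 on control and 271 to 497 on NFAT1 shRNA arrays, with 0 of 7 genes at an unadjusted p under 0.05. All 7 were higher in the mean, and only Pdgfra had a mean signal of at least 6. Pdgfra read 6.30, 7.90 and 7.47 on control and 6.82, 8.44 and 7.88 on NFAT1 shRNA arrays. The endothelial list of 4 genes gave 90.6 to 95.1 on control and 96.1 to 116 on NFAT1 shRNA arrays, which do not overlap, and its signals were dim, from 3.19 to 6.14. All 4 of its genes were higher in the mean, and 1, the VEGF receptor gene Kdr, had an unadjusted p under 0.05. Kdr had a difference of 0.31, no overlap and an adjusted p of 0.266 by limma. Of all genes with a mean signal under 6, 32.4% were lower in the mean and 9.53% had an unadjusted p under 0.05. The groups did not overlap for 2 of the 4 genes, against 18.6% of all genes under that signal. The part of these non-epithelial signals in the results was not tested. Nfatc2 was read by 6 probe sets, of which 4 were lower in the mean with the NFAT1 shRNA and 2 higher. The one with the highest mean, 1426032_at, was higher: it read 5.92, 5.92 and 5.86 on control and 6.19, 6.48 and 6.09 on NFAT1 shRNA arrays, without overlap, with a difference of 0.35 and a limma p adjusted over probe sets of 0.240. The lowest difference, -0.76, was that of 1439205_at. On 1439205_at the control arrays read 6.05, 6.18 and 5.91 and the NFAT1 shRNA arrays 5.15, 5.43 and 5.29, and the limma p adjusted over probe sets was 0.0628. The probe sets thus disagreed in direction, lowered Nfatc2 RNA was not established by these arrays, and groups are named by their labels throughout. Arrays were unevenly spaced within groups. Control 3 was the middle of the 3 control arrays for 54.5% of all genes and for 28 of the 61 members. At a mean signal of at least 6 it was the middle for 69.0% of all genes and 16 of 21 members. It correlated with control 1 and control 2 at 0.997 each, and those correlated with each other at 0.993. NFAT1 shRNA 1 was the closest of the NFAT1 shRNA arrays to the control mean for 46.7% of all genes and for 22 members. At a mean signal of at least 6 it was the closest for 58.6% of all genes and 52.4% of members. Its signals correlated with those of the controls at 0.991 to 0.994, and with NFAT1 shRNA 2 and 3 at 0.985 and 0.984. Results that rest on NFAT1 shRNA 1 are given with and without it.

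Amino acid transporters let cells take up building blocks for protein, nucleotides and glutathione. Several work as pairs of subunits: a heavy chain such as the Slc3a2 product CD98 carries a light chain of the SLC7 family to the membrane, and the light chain exchanges amino acids. Slc7a5 encodes the leucine exchanger LAT1, Slc1a5 the glutamine transporter ASCT2, and Slc7a11 the cystine importer that feeds glutathione synthesis. In many cell types the transcription factor ATF4 raises several of these genes when amino acids are short, and leucine and arginine sensed at the lysosome activate the growth kinase mTORC1.

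Promoter windows of a chosen set of members are shown here, so that these can be set beside their upstream sequence. Windows of other members described below, such as Slc7a5, Slc1a5 and Slc38a9, are not shown. Each line holds the 250 bases before a start site from RefSeq (build GRCm38.p6), 5′ to 3′ on the strand of the gene. Capitals mark TGATGCAA, a form of the element bound by ATF4 with C/EBP factors, or CACGTG, the E-box bound by MYC and by the lysosomal regulator TFEB, each searched on both strands. The first window is that of Slc7a11 (chr3:50443614-50443863, minus strand) and the next those of Slc3a2 (chr19:8713898-8714147, minus strand), Slc7a6 (chr8:106168604-106168853, plus strand) and Slc1a4 (chr11:20332714-20332963, minus strand), whose signals were lower with the NFAT1 shRNA on some or all arrays. Slc36a1 (chr11:55204090-55204339, plus strand) and Slc38a7 (chr8:95853492-95853741, minus strand) encode transporters of lysosomal membranes.
Slc7a11: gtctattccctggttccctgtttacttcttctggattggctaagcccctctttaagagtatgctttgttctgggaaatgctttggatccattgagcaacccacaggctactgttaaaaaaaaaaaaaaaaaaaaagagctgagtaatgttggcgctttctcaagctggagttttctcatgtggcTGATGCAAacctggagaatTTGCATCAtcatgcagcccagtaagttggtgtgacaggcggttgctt
Slc3a2: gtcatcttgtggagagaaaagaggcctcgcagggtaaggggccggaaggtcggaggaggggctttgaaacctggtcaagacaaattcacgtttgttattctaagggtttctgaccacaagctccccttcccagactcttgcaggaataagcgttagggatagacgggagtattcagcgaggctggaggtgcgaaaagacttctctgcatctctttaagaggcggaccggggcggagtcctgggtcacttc
Slc7a6: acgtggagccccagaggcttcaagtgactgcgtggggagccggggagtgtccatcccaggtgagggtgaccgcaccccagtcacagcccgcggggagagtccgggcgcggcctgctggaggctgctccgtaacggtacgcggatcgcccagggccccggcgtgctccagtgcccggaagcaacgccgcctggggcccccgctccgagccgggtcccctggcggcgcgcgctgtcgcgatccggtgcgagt
Slc1a4: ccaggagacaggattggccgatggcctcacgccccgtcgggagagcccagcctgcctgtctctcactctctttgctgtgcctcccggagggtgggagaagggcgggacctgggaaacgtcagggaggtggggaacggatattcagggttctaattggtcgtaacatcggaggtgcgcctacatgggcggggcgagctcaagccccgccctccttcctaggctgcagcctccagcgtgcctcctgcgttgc
Slc36a1: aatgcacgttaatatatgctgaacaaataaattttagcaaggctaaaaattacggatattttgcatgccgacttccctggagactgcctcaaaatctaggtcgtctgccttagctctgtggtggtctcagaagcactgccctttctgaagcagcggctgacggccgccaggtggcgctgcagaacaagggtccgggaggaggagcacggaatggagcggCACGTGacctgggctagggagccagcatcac
Slc38a7: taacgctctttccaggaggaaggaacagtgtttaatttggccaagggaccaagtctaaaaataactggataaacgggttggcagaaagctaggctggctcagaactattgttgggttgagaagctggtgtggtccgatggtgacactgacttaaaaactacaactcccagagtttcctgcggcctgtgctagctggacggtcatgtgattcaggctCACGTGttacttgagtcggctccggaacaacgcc

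The Slc7a11 window held 2 matches to TGATGCAA, one on each strand, and the windows of Slc3a2, Slc7a6 and Slc1a4 held 0. Of 61 members, 45 matched the RefSeq table by symbol, with 66 windows. TGATGCAA was found in 2 of these windows, those of Slc7a11 and of 1 start site of Slc7a7, and in 0.791% of all 32851 windows of the same length. CACGTG was found in 9 of the 66 windows, or 13.6%, against 6.02% of all windows. Slc36a1 and Slc38a7 were among these 9, as were Slc43a1, Slc38a5, Slc7a14, Slc1a6, Slc1a7, Slc6a3 and Slc6a16. The lysosomal sensor gene Slc38a9 was not among them, though not every member had a window. The NFAT core GGAAA was found in 47.0% of the windows of members and 55.6% of all windows. A match is a description of the letters and not a binding site, and windows without one say nothing about the factor.

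Over the whole group, transporter signals did not move one way. Of the 61 members, 0 passed the limma test after adjustment over all genes, where 0.511% of all genes passed. The smallest adjusted p of a member was 0.101, that of Slc1a4. With an unadjusted p under 0.05 there were 7 members, 5 lower (8.20%) and 2 higher (3.28%), beside 7.01% lower and 10.1% higher among all genes. Over all members these shares are near or under the background. All 5 lower members had a mean signal of at least 6. Among the 21 members at that signal, lower ones made 23.8% and higher ones 4.76%, against 11.5% and 12.3% of the 9713 genes at that signal. The groups did not overlap for 4 members that were lower (6.56%) and 11 that were higher (18.0%), against 8.61% and 14.2% of all genes. The median difference was 0.046 over members and 0.043 over all genes. Of the 11 higher members, 10 had a mean signal under 6, close to the array medians or below them, where RMA compresses differences.

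A mean signal of at least 6 over all 6 arrays was reached by 21 members, and 40 lay under it. Among the 21, the median difference was -0.07 and 14 were lower in the mean, where 48.0% of all genes at that signal were lower. Among the 40 dim members the differences were small, from -0.16 to 0.39, with a median of 0.067. A total of 118 probe sets read the members. In 19 of the 30 members with more than 1 probe set, all probe sets lay on 1 side of 0.

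**Figure D1:**
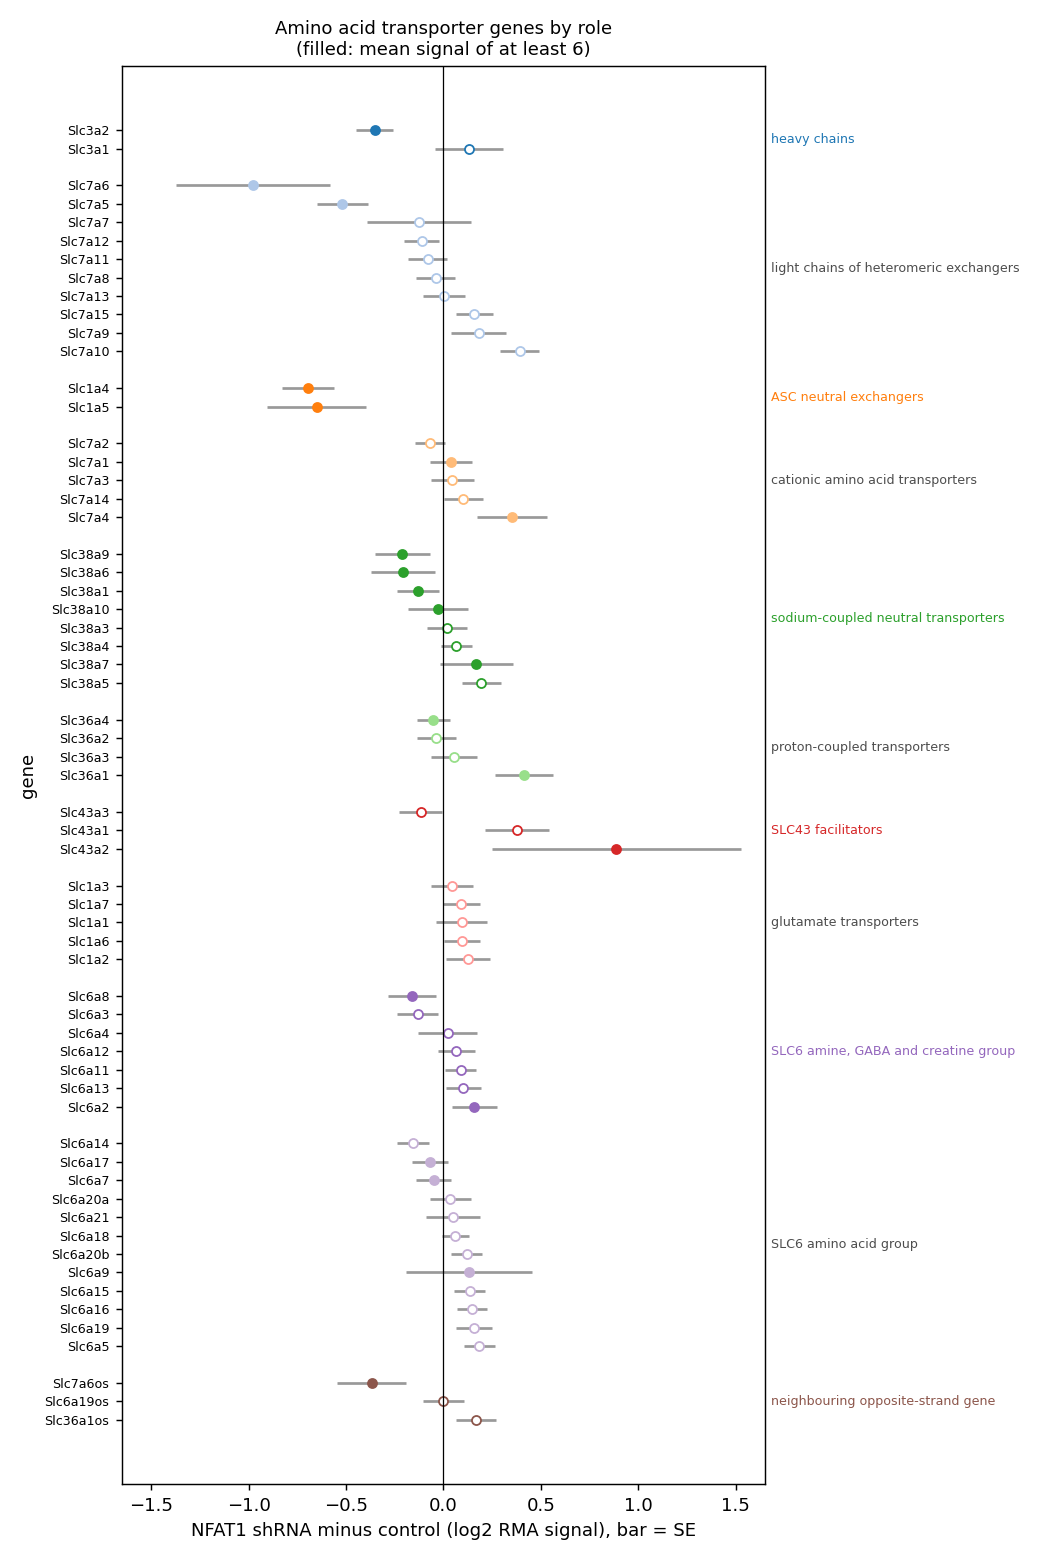
Difference in log2 RMA signal (NFAT1 shRNA minus control, n = 3 arrays each) for the 61 members, grouped by role on the y axis, with bars for the SE. Filled points have a mean signal of at least 6. Slc7a6 has the lowest value at -0.98 and Slc43a2 the highest at 0.89, both with wide bars.

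The heavy chain gene Slc3a2, a marker of this group, had a lower signal on all NFAT1 shRNA arrays. The control arrays read 11.28, 11.06 and 11.22 and the NFAT1 shRNA arrays 10.78, 10.77 and 10.95. The groups did not overlap. The difference was -0.35 ± 0.10 (SE), a level 78.3% of control, with an adjusted p of 0.183 by limma. Slc3a1, the other heavy chain gene, which partners the cystine transporter of kidney and gut, was dim, with signals of 3.72 to 4.36 and a difference of 0.13.

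Its partner light chain gene Slc7a5 showed the same pattern. Signals were 11.74, 11.40 and 11.67 on control arrays and 11.25, 10.92 and 11.07 on NFAT1 shRNA arrays. Each NFAT1 shRNA array was lower than every control array. The difference was -0.52 ± 0.13 (SE), 69.7% of control, with a 95% interval of -0.83 to -0.21 and an adjusted p of 0.162 by limma. Slc3a2 and Slc7a5 were each read by 1 probe set. Without NFAT1 shRNA 1 the difference of Slc7a5 was -0.61 and passed (adjusted p = 0.0236).

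Slc7a6, whose light chain (y+LAT2) exchanges arginine for glutamine, had the lowest difference of all members. Control arrays read 10.37, 10.07 and 10.28, and NFAT1 shRNA arrays 10.21, 8.98 and 8.59. NFAT1 shRNA 1 lay within the control range and the other two lay far below it, so the groups overlapped. The difference was -0.98 ± 0.40 (SE), 50.9% of control, with an adjusted p of 0.285 by limma. The second probe set of Slc7a6, 1460541_at, was also lower, by a difference of -0.69. Without NFAT1 shRNA 1 the fall was -1.45 (adjusted p = 0.00467), and without NFAT1 shRNA 3 the difference was -0.64.

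Slc7a6os, a gene that adjoins Slc7a6 in the annotation and encodes a protein linked to nuclear import of RNA polymerase II, was likewise lower on NFAT1 shRNA 2 and 3 than on every control array. It read 7.93, 7.62 and 7.77 on control and 7.76, 7.13 and 7.32 on NFAT1 shRNA arrays. Its difference was -0.37 ± 0.18 (SE; adjusted p = 0.332 by limma). NFAT1 shRNA 1 again lay among the controls. Without that array the difference was -0.55 (adjusted p = 0.0282). The other opposite-strand genes Slc36a1os and Slc6a19os had differences of 0.17 and 4.4e-05.

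The cystine importer light chain gene Slc7a11, a marker of this group, was dim and did not separate the groups. Its probe set with the highest mean read 5.83, 5.80 and 5.88 on control arrays and 5.58, 5.82 and 5.88 on NFAT1 shRNA arrays. The arrays overlapped, and NFAT1 shRNA 1 was the lowest. The difference was -0.08 ± 0.10 (SE), with a 95% interval of -0.32 to 0.16 (adjusted p = 0.691 by limma). With a signal not far above the array medians, a difference can be understated. Of the 3 marker genes, Slc7a5 and Slc3a2 thus gave strong signals and Slc7a11 a weak one.

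Slc7a10 encodes asc-1, an exchanger of small neutral amino acids including D-serine. It was one of the 2 members that were higher with an unadjusted p under 0.05. Control arrays read 4.70, 4.59 and 4.81 and NFAT1 shRNA arrays 5.20, 5.12 and 4.97. All NFAT1 shRNA arrays were higher, all below the array medians. The difference was 0.39 ± 0.10 (SE; adjusted p = 0.168 by limma). The other light chain genes, Slc7a7, Slc7a8, Slc7a9, Slc7a12, Slc7a13 and Slc7a15, differed by -0.12, -0.04, 0.18, -0.11, 0.0039 and 0.16. Of the 10 light chain genes, 0 passed and 6 were lower in the mean.

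**Figure D2:**
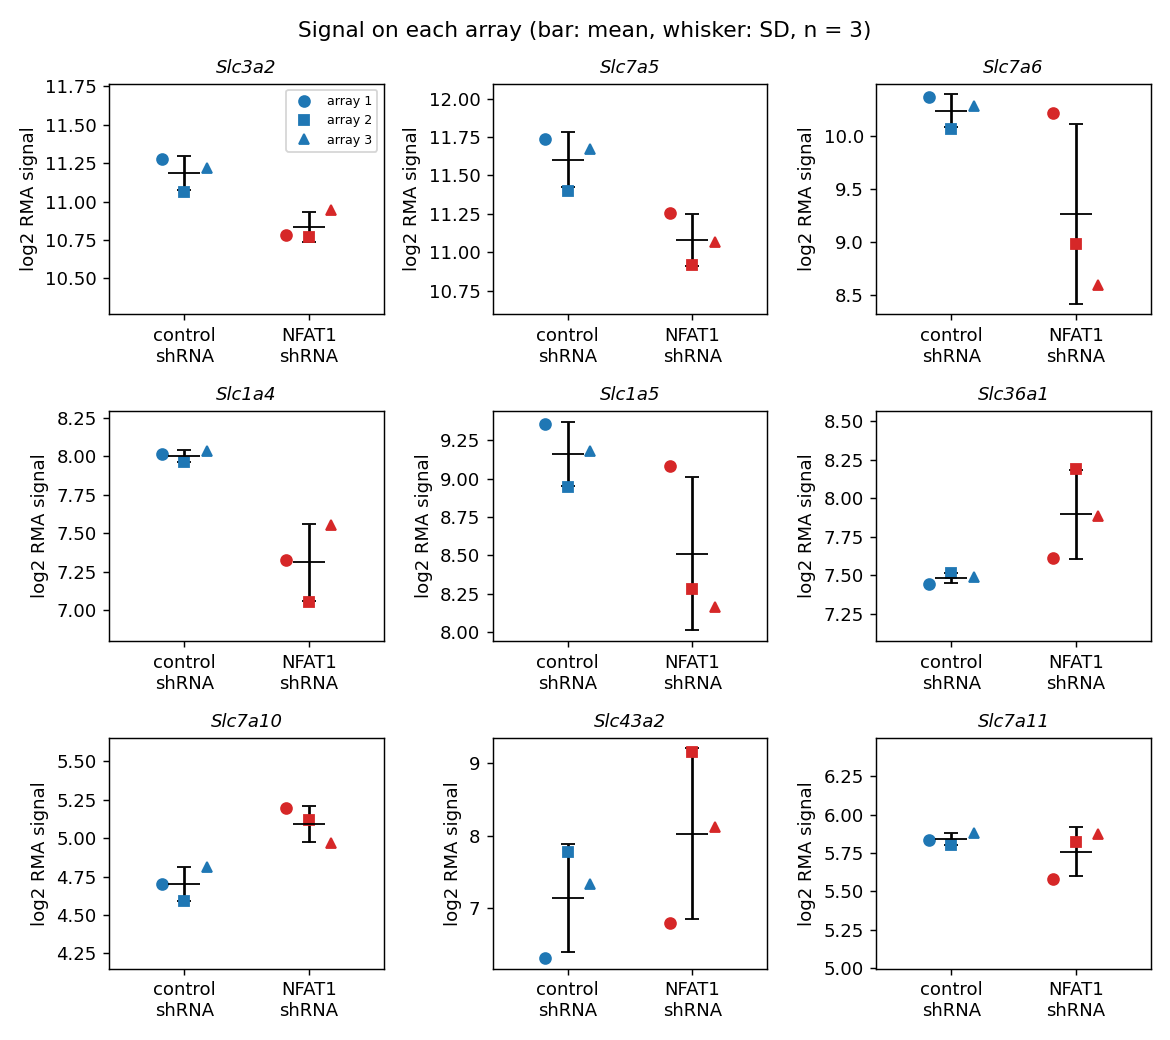
Log2 RMA signal on each array for 9 members, with control shRNA in blue and NFAT1 shRNA in red, marker shapes for the array numbers, bars for means and whiskers for the SD (n = 3); each y axis spans its own range. Slc3a2, Slc7a5 and Slc1a4 are lower on all NFAT1 shRNA arrays, while NFAT1 shRNA 1 lies with the controls for Slc7a6 and Slc1a5.

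The ASC exchanger genes were both lower. Slc1a4 encodes ASCT1, which carries alanine, serine and cysteine. Its control arrays read 8.02, 7.96 and 8.03 and its NFAT1 shRNA arrays 7.32, 7.05 and 7.55. The groups did not overlap, and the controls lay close together. The difference was -0.69 ± 0.13 (SE), 61.8% of control, with a 95% interval of -1.02 to -0.37. The adjusted p was 0.101 by limma, and all 3 probe sets were lower in the mean. On 1423550_at and 1423549_at the differences were -0.35 and -0.31, and the groups overlapped. There NFAT1 shRNA 3 read 6.70 and 6.73, above control 3 at 6.61 and 6.70. With the mean of these probe sets the difference was -0.45.

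Slc1a5, the glutamine transporter gene, read 9.36, 8.94 and 9.18 on control arrays and 9.08, 8.28 and 8.17 on NFAT1 shRNA arrays. NFAT1 shRNA 1 lay within the control range and the other two below it. The difference was -0.65 ± 0.25 (SE), 63.7% of control (adjusted p = 0.275 by limma), and both probe sets were lower. Without NFAT1 shRNA 1 the differences passed for Slc1a5 (-0.94, adjusted p = 0.00910) and Slc1a4 (-0.70, adjusted p = 0.0260). The 5 glutamate transporter genes of the same family, Slc1a1, Slc1a2, Slc1a3, Slc1a6 and Slc1a7, had signals of 3.53 to 5.65 and differences of 0.042 to 0.13.

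Cationic amino acid transporters bring in arginine and lysine. Slc7a1, the main carrier of this kind in dividing cells, read 11.18, 11.16 and 11.17 on control and 11.37, 11.01 and 11.25 on NFAT1 shRNA arrays. The NFAT1 shRNA arrays lay on both sides of the controls. The difference was 0.041 ± 0.11 (SE), with a 95% interval of -0.22 to 0.30 (adjusted p = 0.861 by limma), and its sign turned without NFAT1 shRNA 1 (-0.04). Of the 3 probe sets of Slc7a1, 2 were lower in the mean. Slc7a4 read 6.41, 6.54 and 6.31 on control and 6.38, 7.04 and 6.89 on NFAT1 shRNA arrays. Its difference was 0.35 ± 0.18 (SE; adjusted p = 0.353 by limma) and reached 0.55 (adjusted p = 0.0196) once NFAT1 shRNA 1 was left out. Of its 3 probe sets 1 was lower. The differences of Slc7a2, Slc7a3 and Slc7a14 were -0.07, 0.05 and 0.10.

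The SLC38 genes encode sodium-coupled carriers of glutamine and other neutral amino acids, and 8 were measured, with 0 past the test and 4 lower in the mean. Slc38a1 read 10.75, 10.52 and 10.65 on control and 10.65, 10.50 and 10.37 on NFAT1 shRNA arrays, a difference of -0.13 ± 0.11 (SE; adjusted p = 0.530 by limma). Slc38a6 differed by -0.21, with NFAT1 shRNA arrays at 7.93, 8.34 and 7.78 against controls at 8.08, 8.40 and 8.19. These arrays overlapped. Slc38a10 differed by -0.03, and 4 of its 7 probe sets were lower.

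Slc38a9, the lysosomal arginine sensor that signals to mTORC1, read 6.85, 6.95 and 6.94 on control and 6.48, 7.0 and 6.63 on NFAT1 shRNA arrays. NFAT1 shRNA 2 lay just above the controls and the other two below them. The difference was -0.21 ± 0.14 (SE; adjusted p = 0.452 by limma), and each of its 7 probe sets had a lower mean. On 1436456_at, 1454283_at and 1455360_at every NFAT1 shRNA array was below every control, and on the others the groups overlapped. Slc38a7, a carrier that exports glutamine and asparagine from lysosomes, read 7.30, 7.44 and 7.35 on control and 7.10, 7.83 and 7.67 on NFAT1 shRNA arrays. It was lowest and highest on arrays of the same group. Its difference was 0.17 ± 0.19 (SE), and reached 0.38 (adjusted p = 0.0404) once NFAT1 shRNA 1 was left out. Slc38a3, Slc38a4 and Slc38a5 were dim, with differences of 0.017, 0.066 and 0.19.

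Slc36a1 encodes PAT1, a proton-coupled carrier that moves small amino acids out of lysosomes. It was the other member that was higher with an unadjusted p under 0.05. Control arrays read 7.45, 7.51 and 7.49 and NFAT1 shRNA arrays 7.61, 8.19 and 7.89. The groups did not overlap, and NFAT1 shRNA 1 was close to the controls. The difference was 0.42 ± 0.15 (SE), 133% of control (adjusted p = 0.251 by limma), and 0.56 without NFAT1 shRNA 1 (adjusted p = 0.0217). Without NFAT1 shRNA 2 it was 0.27. Slc36a4 differed by -0.05, with a 95% interval of -0.25 to 0.15. Slc36a2 and Slc36a3 were dim and differed by -0.04 and 0.055.

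The SLC43 family holds facilitators of large neutral amino acids. Slc43a2 (LAT4) had the highest difference of all members and the widest spread. Control arrays read 6.31, 7.77 and 7.34 and NFAT1 shRNA arrays 6.79, 9.15 and 8.13. In each group array 1 was the lowest and array 2 the highest, and the groups overlapped. The difference was 0.89 ± 0.64 (SE), with a 95% interval of -0.64 to 2.41 (adjusted p = 0.481 by limma). Leaving out NFAT1 shRNA 1 gave 1.5 and leaving out NFAT1 shRNA 2 gave 0.32, and neither passed. Without control 1 it was 0.47. All 3 of its probe sets were higher. Slc43a1 (LAT3) was dim, at 4.86, 4.65 and 4.60 on control and 4.94, 5.42 and 4.87 on NFAT1 shRNA arrays. Its groups did not overlap, with a difference of 0.38 ± 0.16 (SE; adjusted p = 0.302 by limma). Slc43a3, whose product carries purine bases rather than amino acids, had the difference -0.12.

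The SLC6 family holds sodium- and chloride-coupled carriers best known from the reuptake of neurotransmitters, and 19 of its genes were members. None of the 19 passed by limma, and 0 had an unadjusted p under 0.05. Slc6a8, the creatine transporter gene, read 8.22, 8.32 and 8.44 on control and 8.0, 8.38 and 8.12 on NFAT1 shRNA arrays. The difference was -0.16 ± 0.12 (SE; adjusted p = 0.505 by limma), and the groups overlapped. Its second probe set, 1448596_at, had a difference of -0.32, also with overlap. Slc6a9, the glycine transporter gene GlyT1, read 7.77, 8.30 and 8.04 on control and 7.43, 8.47 and 8.61 on NFAT1 shRNA arrays. NFAT1 shRNA 1 was the lowest of all arrays and the other two the highest. The difference was 0.13 ± 0.32 (SE; adjusted p = 0.850 by limma), which became -0.09 without NFAT1 shRNA 3. Slc6a14, a broad carrier of neutral and cationic amino acids found in some epithelial tumours, was dim at 3.57 to 3.86 and differed by -0.16. The remaining SLC6 members differed by -0.13 to 0.18.

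**Figure D3:**
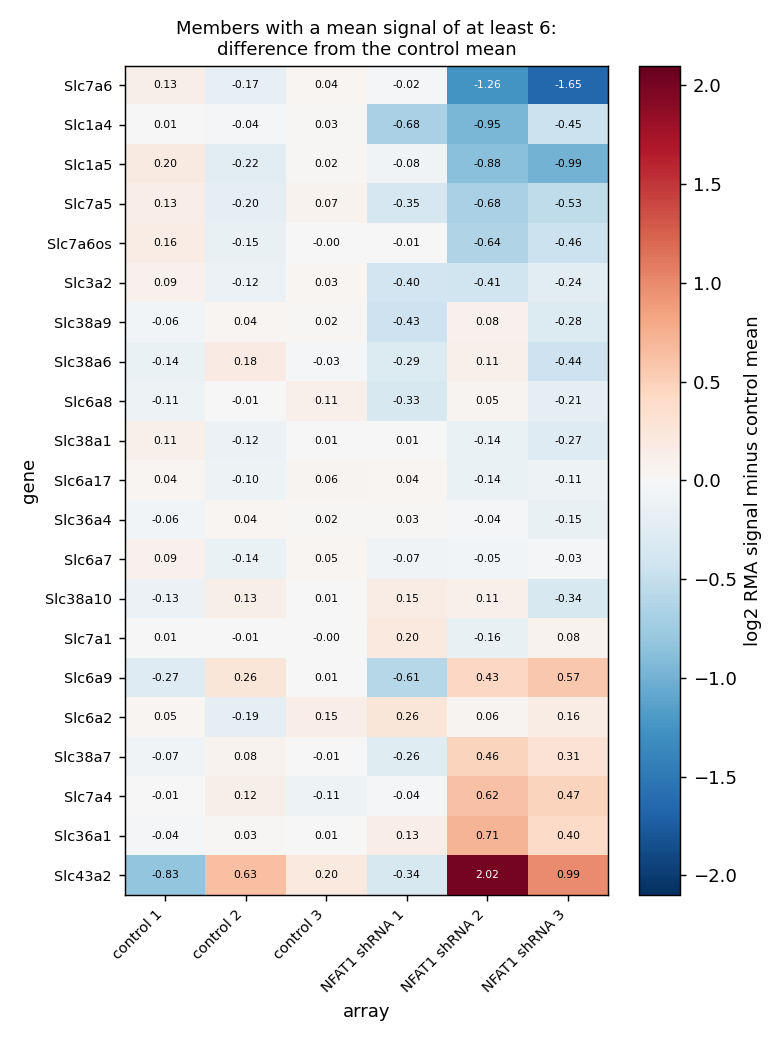
Difference of each array from the control mean (log2 RMA signal, colour and printed value) for the 21 members with a mean signal of at least 6, ordered by their mean difference, with arrays on the x axis. The lower values of Slc7a6, Slc1a5 and Slc7a6os are found on NFAT1 shRNA 2 and 3, whereas Slc1a4, Slc7a5 and Slc3a2 are lower on all NFAT1 shRNA arrays.

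The members at the top of this order showed 2 patterns by array, chosen after their values were seen. Slc1a4, Slc7a5 and Slc3a2 differed from the control mean by -0.68, -0.35 and -0.40 on NFAT1 shRNA 1, and -0.95, -0.68 and -0.41 on NFAT1 shRNA 2. On NFAT1 shRNA 3 these genes differed by -0.45, -0.53 and -0.24. The values of Slc1a4 are those of its brightest probe set, and on its others the groups overlapped. Slc7a6, Slc1a5 and Slc7a6os differed by -0.02, -0.08 and -0.01 on NFAT1 shRNA 1, and -1.26, -0.88 and -0.64 on NFAT1 shRNA 2. Among the NFAT1 shRNA arrays, number 1 was the closest to the control mean for 58.6% of all genes with a mean signal of at least 6. The median of the 21 brighter members was -0.07, -0.04 and -0.21 on NFAT1 shRNA 1 to 3 and 0.012, -0.01 and 0.022 on control 1 to 3. Lower RNA per cell and a smaller share of cells with a transcript cannot be told apart in such bulk samples.

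Single arrays decided whether members passed. Without NFAT1 shRNA 1, 5 members were lower and 3 higher at an adjusted p under 0.05, beside 7.84% and 10.6% of all genes. The lower members were Slc7a6, Slc1a5, Slc1a4, Slc7a5 and Slc7a6os, and the higher ones Slc36a1, Slc7a4 and Slc38a7. With limma's array weights, which gave control 3 a weight of 10.4 and NFAT1 shRNA 1 a weight of 0.253, 6 were lower and 3 higher, beside 8.56% and 10.0% of all genes. Slc3a2 then passed as well (-0.38, adjusted p = 0.0267), as did Slc43a1 (0.54, adjusted p = 0.0422), while Slc38a7 did not. Without any other single array 0 members passed. As shares of the 61 members, lower calls made 8.20% without NFAT1 shRNA 1 and 9.84% with array weights, near the background of the same setting, and higher calls made 4.92% in each, under it. Among the 21 members with a mean signal of at least 6, lower calls made 23.8% without NFAT1 shRNA 1 and 28.6% with array weights, against 13.8% and 14.8% of all genes at that signal. Higher calls there made 14.3% and 9.52%, against 16.6% and 14.6%.

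**Figure D4:**
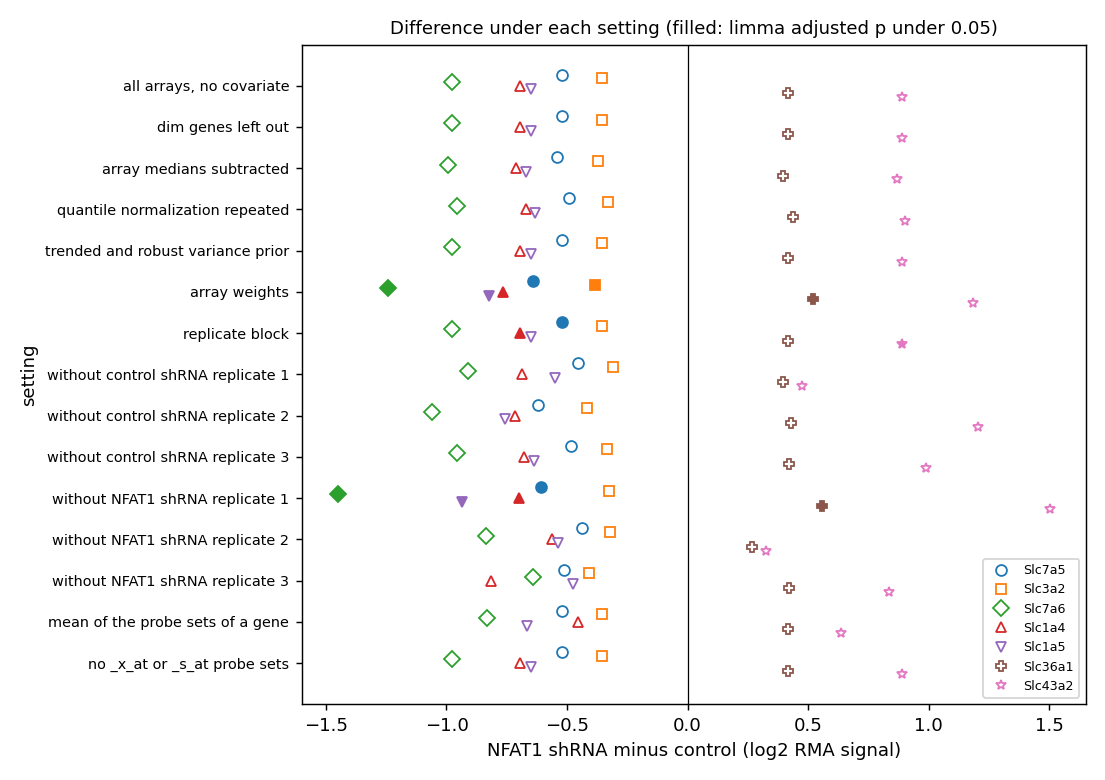
Difference in log2 RMA signal (x axis) of 7 members under each of the 15 settings on the y axis, filled where the limma adjusted p was under 0.05. The 5 lower members stay below 0 and the 2 higher ones above 0 in all of these settings, and filled points occur with array weights, with the replicate block and without NFAT1 shRNA 1.

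Genes that use or sense the transported amino acids were read from lists written for this group, and 0 of them passed by limma after adjustment. At an unadjusted p under 0.05, 10.1% of all genes were higher and 7.01% lower, and of genes with a mean signal of at least 6, which most genes of the first 4 lists reached, 12.3% and 11.5%. Among 11 glutathione and cystine genes an unadjusted p under 0.05 was found for 3, of which 2 were higher (18.2%) and 1 lower (9.09%). Gclc, the rate-limiting subunit of glutathione synthesis, read 9.18, 8.89 and 9.02 on control and 8.80, 7.88 and 8.40 on NFAT1 shRNA arrays, a difference of -0.67 ± 0.23 (SE; adjusted p = 0.237). Cth, which makes cysteine from cystathionine, differed by 0.90 ± 0.29 (adjusted p = 0.225), and the glutathione reductase gene Gsr by 0.35. The groups did not overlap for these 3 genes, which were chosen by their p, and overlapped for the rest of the 11. They did not overlap for 22.8% of all genes, and for 26.4% of those with a mean signal of at least 6.

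Atf4 itself read 11.74 ± 0.11 on control and 11.67 ± 0.17 on NFAT1 shRNA arrays (SD, n = 3), a difference of -0.07 (adjusted p = 0.772 by limma). Among 14 genes of the ATF4 arm 4 reached an unadjusted p under 0.05, of which 3 were higher (21.4%) and 1 lower (7.14%), against 12.3% and 11.5% of all genes with a mean signal of at least 6, which all 14 reached. The stress genes Ddit3 and Nupr1 differed by 1.03 and 0.98, and the sestrin gene Sesn2 by 0.41, while the serine synthesis gene Psat1 differed by -0.37. For Ddit3 and Nupr1 the groups overlapped. Over the whole list they did not overlap for 2 of the 14 genes, against 26.4% of all genes with a mean signal of at least 6. The median difference of the list was 0.06.

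Among 25 genes of amino acid sensing by mTORC1 an unadjusted p under 0.05 was found for 6, which were all higher (24.0%), against 12.3% of all genes with a mean signal of at least 6, which 24 of the 25 reached. The list's median difference was 0.21, against 0.043 over all genes and 0.014 over those at that signal. The groups did not overlap for 5 of the 25 genes, against 26.4% of all genes at that signal. The Ragulator subunit gene Lamtor5 read 10.61, 10.51 and 10.60 on control and 10.83, 10.90 and 10.82 on NFAT1 shRNA arrays, a difference of 0.28 ± 0.08 (SE; adjusted p = 0.180 by limma). The NFAT1 shRNA arrays were all higher and close together. Lamtor3 and Lamtor4, of the same complex, differed by 0.28 and 0.24. The GTPase gene Rragc differed by 0.45, the leucine sensor family gene Sesn1 by 0.45, and Rptor, the scaffold of mTORC1, by 0.21. Their adjusted p-values lay between 0.180 and 0.262. For Sesn1 the groups overlapped and 2 of its 4 probe sets were lower. Of the 3 probe sets of Rptor 1 was lower.

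Among 10 glutamine and glutamate enzyme genes 2 reached an unadjusted p under 0.05, 1 in each direction (10.0% each), near the shares of all genes. Prodh, which breaks down proline, read 8.66, 8.19 and 8.63 on control and 8.0, 6.73 and 7.42 on NFAT1 shRNA arrays, a difference of -1.11 ± 0.32 (SE; adjusted p = 0.193 by limma). The alanine transaminase gene Gpt differed by 0.34. Of 21 other amino acid carriers, 3 were lower (14.3%) and 0 higher at that level, against 7.01% and 10.1% of all genes. Slc25a15, the mitochondrial ornithine carrier, read 9.46, 8.97 and 9.32 on control and 8.35, 8.06 and 8.38 on NFAT1 shRNA arrays. The difference was -0.99 ± 0.16 (SE; adjusted p = 0.0650 by limma). Slc15a4, a lysosomal carrier of histidine and peptides, differed by -0.94 ± 0.16 (adjusted p = 0.0758), and Slc25a29, a mitochondrial carrier of basic amino acids, by -0.20. For these carriers and for Prodh the groups did not overlap. Over the whole lists they did not overlap for 4 of the 21 carriers and 2 of the 10 enzyme genes, against 22.8% of all genes.

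**Figure D5:**
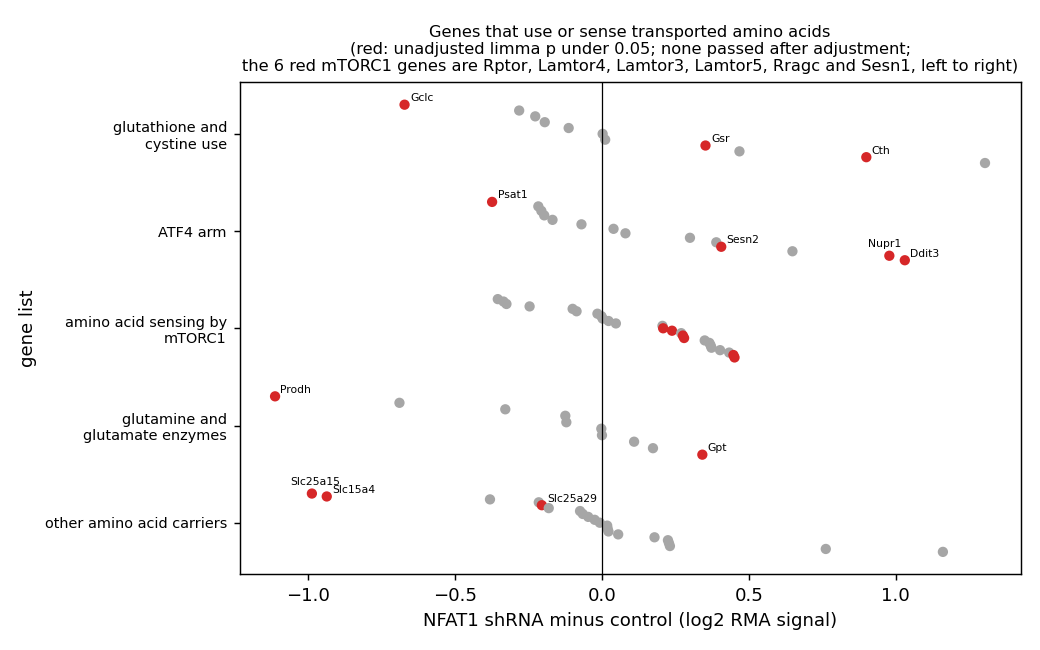
Difference in log2 RMA signal (NFAT1 shRNA minus control, x axis) for genes of 5 lists on the y axis, 1 point a gene, red where the unadjusted limma p was under 0.05. Prodh lies lowest at -1.11, and the 6 red genes of amino acid sensing all lie above 0.

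Slc6a6 and Slc38a2, which belong to the same families but were left out by the rule, had differences of -0.27 and -0.12. The taurine transporter gene Slc6a6 read 11.64, 11.64 and 11.67 on control and 11.40, 11.42 and 11.33 on NFAT1 shRNA arrays, with no overlap (adjusted p = 0.184 by limma).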

How the data were processed

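Per the submitters' processing notes, the deposited log2 signals come from RMA, which the authors ran in a version not given in the sources used here. Its quantile normalization can mask a general rise or fall of transcripts, and it shrinks differences between weak signals. The platform annotation gave 1 symbol to 34945 of 45037 probe sets. Another 932 had several symbols and 9160 were unnamed, and neither were used. The RefSeq gene table matched 34741 by gene number and changed 0 symbols. The brightest probe set by mean stood for each of the 18193 genes.

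Groups and replicate numbers came from the labels. Linear models and moderated tests were made in R 4.3.3 with limma 3.58.1 (lmFit, eBayes), with neither covariates nor a filter on dim genes. P-values are 2-sided and Benjamini-Hochberg adjusted over all genes. With 3 arrays against 3 an exact permutation test cannot go below 0.1, so none was used. The fit was run on simulated data with larger differences than those of the members and a smaller spread than measured. That run checks the code and says nothing about power here. Named genes were Slc7a5, Slc3a2, Slc7a11, members with an unadjusted p under 0.05 or a mean signal of at least 8 in a group, listed genes with an unadjusted p under 0.05, Atf4, Nfatc2, Slc6a6 and Slc38a2. Other members were named to account for the group, some after their values were seen. The members and lists were chosen with earlier results of these data known. Alternatives covered a filter on dim genes, 2 other scalings, another variance prior, weights for arrays, a block for the replicate number, each array left out, probe sets averaged per gene, and probe sets prone to cross-hybridisation left out.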

Additional observations from a re-analysis of the deposited data

How the results depend on the processing

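Under the 14 alternatives the 15 named members gave 208 values, of which 184 kept their direction and their side of the threshold, 14 passed newly and 10 turned sign. The sign turned for Slc7a1 with array weights (-0.025), without NFAT1 shRNA 1 (-0.039) and with the mean of its probe sets (-0.075), and for Slc7a11 without NFAT1 shRNA 1 (0.0093). It turned for Slc6a9 without control 1 (-0.0031), NFAT1 shRNA 2 (-0.018) or NFAT1 shRNA 3 (-0.089), and for Slc38a10 without control 2 (0.035) or NFAT1 shRNA 3 (0.13) and with the mean of its probe sets (0.034). With 1 array left out these genes ran from -0.039 to 0.14 (Slc7a1), -0.14 to 0.0093 (Slc7a11), -0.089 to 0.50 (Slc6a9) and -0.12 to 0.13 (Slc38a10). The number of members passing was 3 higher and 6 lower with array weights, and from 0 to 3 higher and 0 to 5 lower when 1 array was left out. Over all genes the count of 93 became 3380 with array weights and ran from 0 to 3349 when 1 array was left out. It was 0 without control 1, 2 or 3, and 2 without NFAT1 shRNA 2, where limma gave 1698, 2247, 1761 and 1848 genes, and 4, 5, 4 and 7 members, with an unadjusted p under 0.05. The median difference over members, 0.046, was -0.070 over the 21 members left by the filter on dim genes, 0.014 with quantile normalization repeated and 0.022 with array weights, and ran from 0.021 to 0.063 when 1 array was left out. The cause of these shifts was not tested, except that the filter drops the dim members.

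With the replicate block 1 member was higher (Slc43a2, 0.89, adjusted p = 0.0494) and 2 were lower (Slc1a4, adjusted p = 0.0344, and Slc7a5, adjusted p = 0.0401), and 792 genes passed. Deviations from the group means correlated across genes at 0.69 and 0.53 for numbers 1 and 2 and at -0.042 for number 3. Control 3 was also near 0 with NFAT1 shRNA 1 (0.020) and 2 (0.015), so its value cannot show whether number 3 pairs. Control 2 correlated with NFAT1 shRNA 3 at 0.46, across unequal numbers. Whether equal numbers pair the arrays was not tested. Array number limits the precision here, and signals near the background limit what dim members can show.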
